A study of Mus musculus with 238 samples.

Results

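The genes described here are 8 protein-coding genes of the mature myelin sheath: Mbp, Mog, Mag, Mobp, Cnp, Mal, Cldn11 and Opalin. They were taken by name from the 21076 genes of a single count table, and all 8 were found in it. The table holds 229 brain libraries from 15 dissected regions and 9 liver libraries of C57BL/6JN mice aged 19 months. In the diet experiment, females were dietary restricted (aDR, 5 mice) or fed ad libitum (AL, 4 mice). In the plasma experiment, males were injected retro-orbitally with young mouse plasma (YMP, 3 mice) or with PBS (4 mice). Every mouse was aged, the labels name no altered allele, and sex and experiment coincide, so that AL and PBS mice differ in both. Not every mouse had a library analysed here in every region. For diet, hypothalamus had 4 aDR and 4 AL libraries, entorhinal cortex 5 and 3, and corpus callosum 4 and 3. For plasma, corpus callosum had 2 YMP and 3 PBS libraries, and 3 of each were at hand for visual cortex, pons, posterior hippocampus, cerebellum and hypothalamus.

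Myelin is the stack of oligodendrocyte membrane that insulates axons in the central nervous system. Myelinating oligodendrocytes make large amounts of a few structural proteins and lipids, under transcription factors that include Sox10, Olig2 and Myrf, and white matter and brainstem are rich in such cells. Mbp (myelin basic protein) and Mobp are basic proteins that hold the cytoplasmic faces of the compacted membrane together. Cnp is an enzyme of the non-compact, cytoplasm-filled channels of the sheath. Mag lies on the innermost wrap facing the axon, and Mog on the outermost surface. Cldn11 is the claudin of the tight junctions between the layers, Mal is a proteolipid of lipid-raft transport, and Opalin is a small glycoprotein specific to oligodendrocytes. In bulk tissue, fewer oligodendrocytes and less RNA per oligodendrocyte cannot be told apart.

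Promoters are shown for Mobp, Mal and Opalin, because the shares of these 3 genes in the myelin transcript pool parted most in a mouse described further on. Each line is the 250 bases before the annotated start, 5′ to 3′ on the gene's strand, from RefSeq on GRCm38.p6. Capitals mark matches to ACAAAG or ACAATG on either strand, which are cores of the DNA motif bound by Sox proteins. The windows are chr9:120149492-120149741 on the plus strand for Mobp, chr19:41077114-41077363 on the minus strand for Opalin, and chr2:127656696-127656945 on the minus strand for Mal.
Mobp: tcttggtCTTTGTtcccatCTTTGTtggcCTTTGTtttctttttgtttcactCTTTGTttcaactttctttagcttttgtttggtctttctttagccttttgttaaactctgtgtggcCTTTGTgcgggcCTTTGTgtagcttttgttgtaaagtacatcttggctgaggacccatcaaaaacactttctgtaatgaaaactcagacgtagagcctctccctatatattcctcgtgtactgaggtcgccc
Opalin: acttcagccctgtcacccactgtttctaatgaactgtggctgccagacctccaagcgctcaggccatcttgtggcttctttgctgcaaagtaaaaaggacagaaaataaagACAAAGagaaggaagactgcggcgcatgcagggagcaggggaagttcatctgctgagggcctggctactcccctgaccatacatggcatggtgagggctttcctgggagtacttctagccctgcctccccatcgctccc
Mal: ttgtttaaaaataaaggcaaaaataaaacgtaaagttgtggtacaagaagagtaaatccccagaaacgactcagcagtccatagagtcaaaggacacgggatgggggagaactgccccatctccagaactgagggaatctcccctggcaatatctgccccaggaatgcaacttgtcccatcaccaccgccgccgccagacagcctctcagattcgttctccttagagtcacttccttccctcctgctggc
The Mobp window held 6 matches, all of them CTTTGT, between 243 and 120 bases before the start. Opalin held 1 match at 139 bases, and Mal held 0. Of the other members, Cnp held 1 match, Mag held 1 in 2 of its 3 annotated windows, and Mog and Cldn11 held 0. Among 32851 promoter windows of 250 bases, 16.5% held ACAAAG, 10.7% held ACAATG and 25.2% held either, and the Mobp window was the only 1 with 6 or more. The promoter table matched 7 of the 8 members, and Mbp is named only. A match describes letters in a window and is not a measured binding site.

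Total counts of the 229 brain libraries ran from 0.606 M to 32.4 M, where M is mega. Their median was 8.44 M, and 6 of them were under 2 M. Mitochondrial genes took 1.47% to 3.6% of counts. The member genes summed to between 0.0403% of the counts in an entorhinal cortex library and 2.88% in a caudate putamen library. Levels are given as CPM, counts divided by library sizes in M, with the sizes scaled by the TMM method of edgeR. In the 9 liver libraries, Mog had no count, Mobp, Cldn11 and Opalin had 0 or 1, Mag 1 to 5, Mal 4 to 15 and Mbp 1 to 19. Cnp had 62 to 454 counts there.

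All 8 genes differed between brain regions in the control mice of both experiments. For Mbp the 3 highest means were those of medulla, pons and corpus callosum in AL and in PBS mice. In AL mice, Mbp averaged 14029.9 ± 709 (SD, n = 4) CPM in medulla, 13911 ± 1651 (SD, n = 4) in pons and 13791 ± 3264 (SD, n = 3) in corpus callosum. It averaged 5422 ± 1469 (SD, n = 4) in cerebellum and 1732 ± 250.1 (SD, n = 4) in motor cortex. Entorhinal cortex was lowest at 522 ± 262 (SD, n = 3). The highest region mean of Mbp was 26.9 times the lowest in AL mice and 16.6 times in PBS mice. Mobp spanned the widest range in AL mice, 32.8-fold, and Cnp the narrowest, 10.4-fold. Neighbours in the order were mostly not separable, since the ranges of 12 to 14 of the 14 adjacent pairs overlapped for every gene. For Mbp in AL mice, the exceptions were olfactory bulb against visual cortex and visual cortex against entorhinal cortex.

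The top of the order differed among the genes. In AL mice, Mbp, Mog and Mag had their highest mean in medulla, and Mobp, Cnp, Mal, Cldn11 and Opalin in corpus callosum. In PBS mice, Mbp, Mog, Mag and Mobp were highest in medulla, Mal, Cldn11 and Opalin in corpus callosum, and Cnp in caudate putamen (1521 ± 616 (SD, n = 4) CPM), with medulla next (1475 ± 98.2 (SD, n = 4)). That rank of Cnp rested on 1 library, the PBS mouse 76 at 2438 CPM. The other PBS mice read 1117 to 1274 there, and the PBS medulla libraries read 1338 to 1570. Opalin had the profile least like the others. In AL mice, after corpus callosum (102 ± 23.0 (SD, n = 3) CPM) came SVZ (mean 73.5, range 56.6 to 95.1) and caudate putamen (mean 70.8, range 45.1 to 95.7), with overlapping ranges. Entorhinal cortex was lowest for all 8 genes in AL mice and for 7 in PBS mice, where Opalin was lowest in olfactory bulb.

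**Figure D1:**
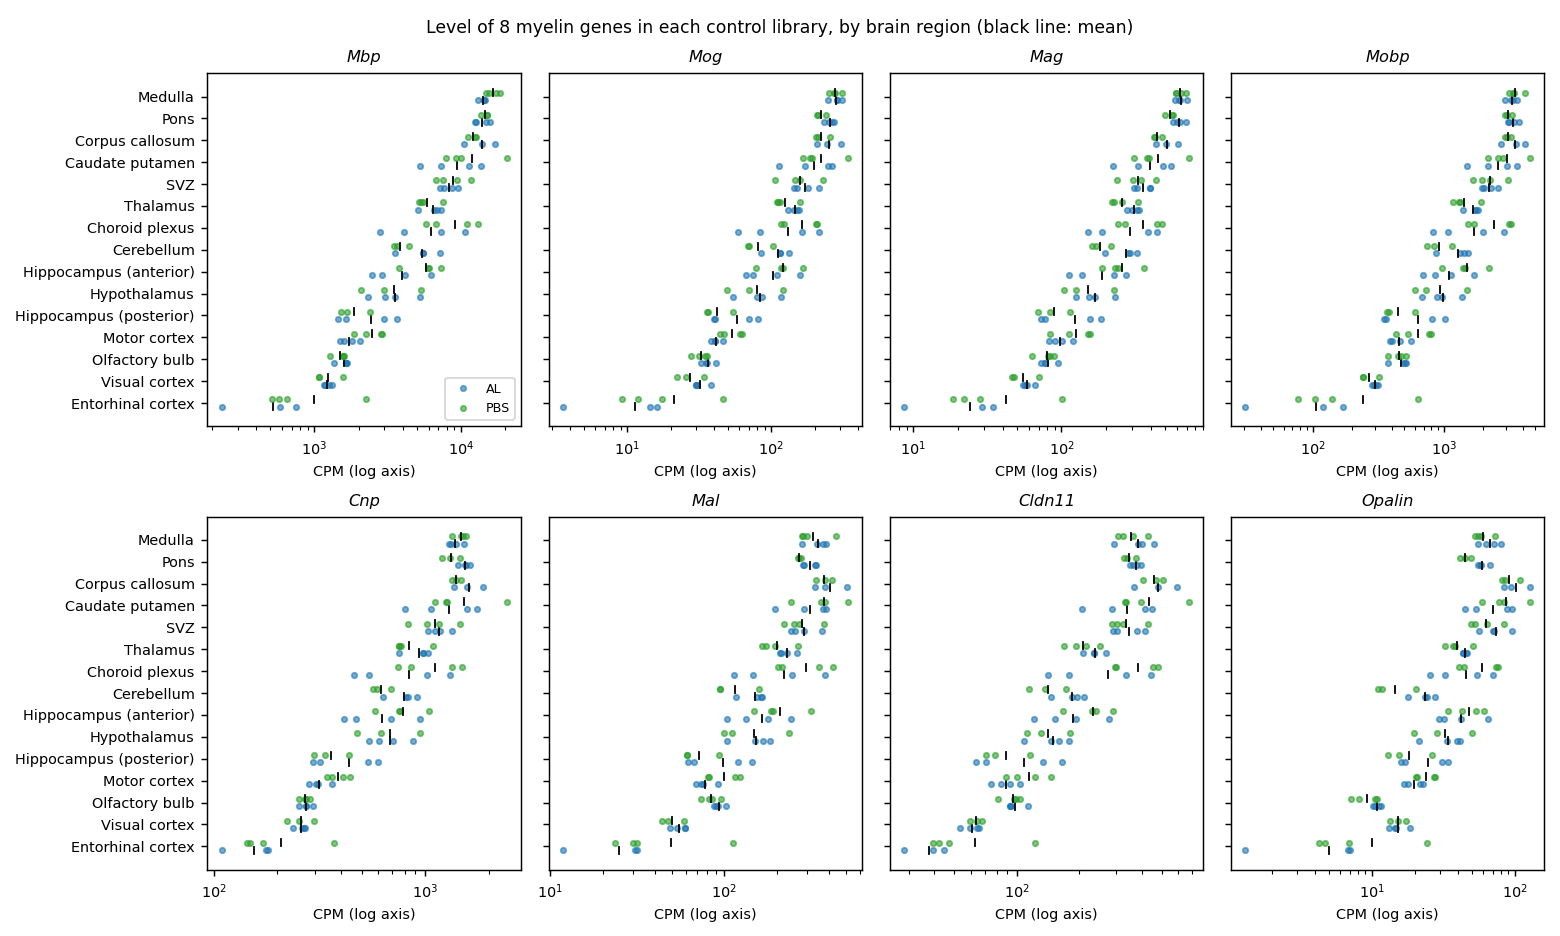
Levels of the 8 genes by brain region in the control mice, with CPM on a log axis, each point a library (AL or PBS) and black lines at group means. Mbp in AL mice runs from 14029.9 CPM on average in medulla to 522 in entorhinal cortex, and the other genes keep much of the same order.

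Per kilobase of merged exon sequence, Mbp was the most abundant member. In AL medulla it reached 1657 ± 83.7 CPM per kb (SD, n = 4), against 480.5 ± 43.4 for Mobp and 382 ± 27.1 for Cnp. Cldn11 stood at 206 ± 36.5, Mog at 166 ± 15.1, Mag at 157 ± 12.7 and Mal at 124 ± 17.1. Opalin was lowest at 22.9 ± 3.66 CPM per kb. These levels rest on all annotated exons and not on the isoforms in use. Cnp shares 154 exonic bases with Dnajc7 on the opposite strand, and Mobp shares 79 with the non-coding Gm38642 on the same strand, so reads there cannot be assigned to 1 gene.

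The regional differences passed the edgeR quasi-likelihood F test over 15 regions for 8 of 8 genes in AL mice, with Benjamini-Hochberg adjusted p from 2.53e-18 (Mbp) to 1.43e-16 (Mal). The background is high, since 98.1% of 15324 genes tested passed. In PBS mice 8 of 8 passed as well, beside 96.1% of genes. Medulla exceeded motor cortex in AL mice by 2.96 (SE 0.33, log2) for Mbp, 2.80 (SE 0.35) for Mobp and 1.74 (SE 0.28) for Opalin, while the median of all genes was 0.04. All 8 were called higher there, against 31.4% of genes. In PBS mice 8 of 8 were also called higher in medulla, against 29.4%, from 1.28 for Opalin to 2.70 for Mbp. Corpus callosum exceeded motor cortex by 2.37 (Cnp) to 3.01 (Mbp) in AL mice, with 8 of 8 called against 26.3% of genes. In PBS mice the range was 1.77 (Mag) to 2.24 (Mbp), with 8 of 8 called against 22.2%.

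Fixed lists of other myelin genes moved with the members. Of 20 other sheath proteins, 20 were called higher in AL corpus callosum than in motor cortex and 19 in AL medulla. In PBS mice 19 were called higher in each. Plekhb1, a membrane protein of myelin, was higher in AL medulla by 2.38 (SE 0.21, log2), and Gjb1, a gap junction protein, by 3.30 (SE 0.32). Of 12 enzymes of myelin lipids, 10 were called higher in AL corpus callosum and 10 in AL medulla, and 9 in each region of PBS mice. Of the same 12, 2 were called lower in AL medulla and 1 in PBS corpus callosum. Enpp6, a choline phosphodiesterase that also marks newly forming oligodendrocytes, was higher in AL medulla by 3.68 (SE 0.32). Of 10 oligodendrocyte transcription factors, 9 were called higher in each region of AL mice and 8 in each region of PBS mice. Nkx6-2 was higher in AL medulla by 2.64 (SE 0.23), Olig1 by 1.59 (SE 0.15) and Olig2 by 1.39 (SE 0.13).

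Markers of other cells moved with these contrasts. Corpus callosum libraries contained choroid plexus transcripts: the 7 markers summed to 46.9 to 11585 CPM in AL mice and 5239 to 19047 in PBS mice, against at most 4.01 in control motor cortex. All 7 were called higher in corpus callosum in both experiments, with medians of 8.15 and 9.47 on the log2 scale, and their part in the member differences was not tested. Schwann cells of peripheral nerve make several of the same myelin proteins. Of their markers, Pmp2 was at most 0.182 CPM in control medulla, with a median of 0. Ncmap reached 5.01 CPM and Prx 0.728. Drp2 was lower in medulla than in motor cortex, with medians of 16.8 and 34.8 CPM in AL mice. The 5 markers summed to 17.8 to 22.4 CPM in AL medulla and 33.8 to 44.2 in AL motor cortex. Of 8 neuronal markers, 6 were called lower and 1 higher in AL corpus callosum, and 4 lower and 2 higher in AL medulla, and their part was not tested.

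Across the 15 region means, the profiles of the members resembled each other closely. In AL mice, Pearson's r between pairs of members ran from 0.941 (Opalin with Mag) to 0.997 (Mobp with Mog), and r with the average member profile from 0.968 (Opalin) to 0.998 (Mobp). The average profile of AL mice correlated with that of PBS mice at r = 0.963 over the 15 regions. Of 10629 genes compared, the non-members nearest to the average profile in AL mice included Ermn (r = 0.996), Ugt8a (0.995), Trim59 (0.994), Fa2h (0.994), Bcas1os1 (0.992), Galnt6 (0.990) and Bcas1 (0.990). In PBS mice, r for the same genes was 0.982 or higher. Ermn encodes a sheath protein, and Ugt8a and Fa2h make the galactolipids of myelin. The points are means over regions that share mice and libraries, so these values describe likeness only.

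The members kept different proportions to each other in medulla and in motor cortex. Within each mouse, the log2 CPM of a member minus the mean of the 8 was compared between medulla and motor cortex with limma. In the 9 diet mice, Mbp took a larger part in medulla by 0.55 (SE 0.12), higher in 9 of 9 mice, with single mice between 0.46 and 0.64. Opalin took a smaller part by -0.58 (SE 0.12), lower in 9 of 9 mice, with single mice between -1.02 and -0.40. Mobp (0.35), Mog (0.29) and Mag (0.29) were higher and Mal (-0.34) and Cldn11 (-0.34) lower in 9 of 9 mice. Because the mean of the same 8 genes is subtracted, higher values of some members force lower values of others. These 7 of 8 were called, with Benjamini-Hochberg adjusted p from 0.000117 (Mbp) to 0.0213 (Mag), and Cnp was not called (-0.23, adjusted p = 0.066). Cnp was lower in 9 of 9 mice too, and limma without the mouse as a block called it (adjusted p = 0.016). Since every gene is set here against the member mean, 98.4% of genes passed the same test, and the members' share lies below that. Limma draws the SE toward the spread of all genes set against that mean. The SE and p values therefore do not measure the members' own spread between mice. Relative to Ermn in place of the member mean, an alternative chosen after the data were seen, 4 of 8 were called, Cnp, Mal, Cldn11 and Opalin, all lower. The differences of Mbp (0.28), Mobp (0.08), Mog (0.03) and Mag (0.03) were then not called. The share of all genes called is not given for Ermn or without the block. Those calls therefore cannot be set against a background.

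The 7 plasma mice gave differences of the same sign for all 8 genes. Mbp (0.64, SE 0.19), Mobp (0.42, SE 0.19) and Opalin (-0.74, SE 0.19) were called by limma, 3 of 8 beside 97.6% of genes, each in the stated direction in 7 of 7 mice. Relative to Ermn, 4 of 8 were called, Cnp (-0.53), Mal (-0.69), Cldn11 (-0.71) and Opalin (-1.08), all lower. Mbp (0.29) and Mobp (0.07) were then not called, and Mog and Mag turned to -0.08 each. Without the mouse as a block, 7 of 8 were called. For this setting and for Ermn the share of all genes called is not given, so the counts lack a background. In corpus callosum the shifts were smaller. Mbp (0.41) and Mobp (0.32) were called in the 7 diet mice, 2 of 8 beside 98.5% of genes, and none of 8 in the 5 plasma mice, beside 97.4%. In these plasma mice the SE was 0.263 for every member. Yet Mbp was higher in 5 of 5 mice (0.21 to 0.35) and Mag lower in 5 of 5 (-0.27 to -0.19). The missing calls there cannot decide whether the proportions differed. Relative to Ermn, only Mal was called in the diet mice (-0.36), and Mbp (0.28) and Mobp (0.19) were not. At an unadjusted p under 0.05, limma found 0 of 8 in plasma corpus callosum.

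Levels of the members varied between mice of a group, in most regions together. In entorhinal cortex, the within-group SD of log2 CPM had a median of 1.11 over the members, against 0.204 over all genes, and in the choroid plexus 0.885 against 0.222. In medulla and olfactory bulb the medians of members and all genes lay close together, 0.153 against 0.178 and 0.162 against 0.160. Each of the 8 members exceeded the all-gene median SD in 10 of the 15 regions. Single libraries carried all or most members at once. In caudate putamen the PBS mouse 76 was highest for 8 of 8, in SVZ the YMP mouse 73 was highest and the YMP mouse 81 lowest for 8 of 8, and in pons the aDR mouse 67 was lowest for 8 of 8. The median correlation between members over libraries of a region, after removal of group means, was 0.487 in olfactory bulb, 0.594 in medulla and at least 0.704 elsewhere.

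No member was called changed by dietary restriction or by young plasma in any of the 15 regions, with the edgeR quasi-likelihood test and Benjamini-Hochberg adjustment over all genes of a region. Few genes of any kind were called. For diet the called share of all genes was 0.0146% in caudate putamen, 0.0524% in cerebellum, 0.00707% in choroid plexus, 0.0215% in corpus callosum, 0.00714% in medulla, 0.251% in motor cortex, 0.22% in olfactory bulb, 0.0212% in SVZ and 0.202% in visual cortex, and 0% in the other 6 regions. For plasma it was 0.00738% in cerebellum, 0.184% in corpus callosum and 0% in the other 13 regions. DESeq2 called 0 members in the diet regions and 7 in the plasma regions, which are named below. At an unadjusted p under 0.05, plasma gave 8 of 8 members in caudate putamen, beside 10.2% of genes, and 8 of 8 in anterior hippocampus, beside 7.12%. It gave 7 in corpus callosum (8.32% of genes), 5 in medulla (9.36%), 3 in cerebellum (10.3%) and 2 in olfactory bulb (8.84%). Diet gave 6 in motor cortex (10.5% of genes), 5 in cerebellum (13.4%) and 2 in visual cortex (9.11%). It gave 1 each in corpus callosum (2.63%), SVZ (4.55%) and olfactory bulb (13.7%), and 1 of 8 in olfactory bulb is near the background. The replicates are separate mice.

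**Figure D2:**
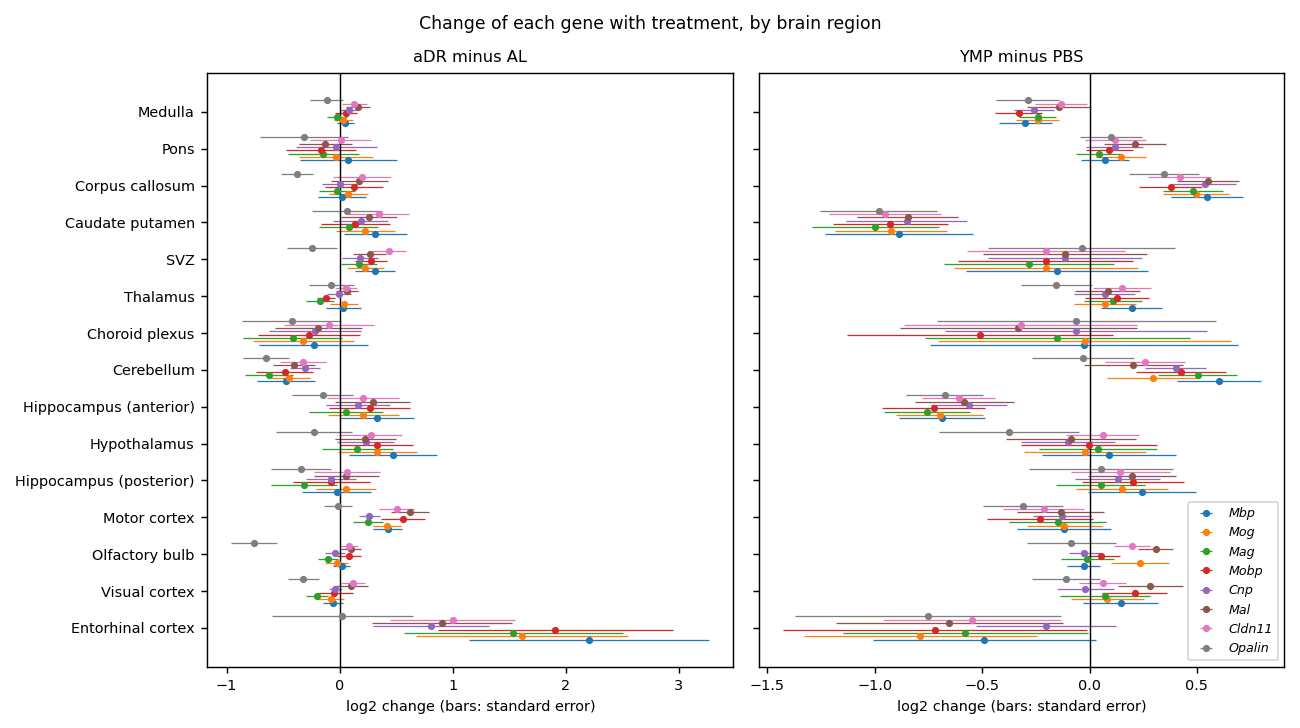
Difference between treated and control mice for each of the 8 genes in each of 15 regions, on the log2 scale from edgeR with bars of 1 standard error, for the diet and the plasma experiment. None of the 240 values passed the adjusted threshold, and within a region the 8 genes mostly lie on the same side of 0.

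In caudate putamen, all 8 members had lower values after young plasma, with differences of -0.85 (Mal) to -0.998 (Mag) on the log2 scale. Mobp read 2805, 4553, 2568 and 2166 CPM in the 4 PBS mice and 2043, 1297 and 1487 in the 3 YMP mice, a difference of -0.93 (SE 0.27). Mog read 191, 339, 186 and 166 in PBS mice and 145, 102 and 105 in YMP mice. The groups did not overlap for 6 of 8 members, all but Mbp and Mal, where 6.26% of genes were lower without overlap. The PBS mouse 76 was the highest library for all 8, with Mbp at 20499 CPM against 7946 to 10056 in the other PBS mice.

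The adjusted p values in caudate putamen were 0.474 to 0.476 by edgeR. DESeq2 called 4 members lower, with adjusted p of 0.0387 (Cldn11), 0.047 (Mal), 0.0496 (Mobp) and 0.0497 (Opalin), where it called 0.551% of genes. Other sheath proteins lay the same way, 19 of 20 lower with a median of -0.82, and none was called by edgeR. All 12 lipid enzymes and all 10 transcription factors were also lower, with medians of -0.73 and -0.73, and none of them was called. Choroid plexus markers summed to 3608 CPM in the same PBS mouse 76, against 11.2 to 29.1 in the other 6 libraries, and Aqp1 and Slc4a5 were at 0 in the YMP mice. Astrocyte markers summed to 1693 to 1871 CPM in YMP mice and 2217 to 3255 in PBS mice, without overlap. The part of the choroid plexus and astrocyte markers in the result was not tested.

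Anterior hippocampus showed values of the same sign, between -0.56 (Cnp) and -0.76 (Mag). Mag, the adhesion protein facing the axon, read 363, 241, 189 and 230.2 CPM in PBS mice and 143, 146 and 166 in YMP mice, without overlap. Mbp, Cnp and Opalin also did not overlap, so 4 of 8 members were lower in every YMP mouse, against 3.27% of genes. The adjusted p was 0.683 for each member by edgeR, and DESeq2 called none. Choroid plexus markers summed to 1499.6 CPM in the PBS mouse 76 and 416 in the YMP mouse 77, and to 9.63 to 18.5 in the other 5 libraries. Their part in the member values was not tested. In medulla the values ran from -0.33 (Mobp) to -0.13 (Cldn11), and Mobp and Mag did not overlap, against 4.36% of genes. There the adjusted p by edgeR was 0.452 to 0.789. Microglial markers summed to 395 to 428 CPM in YMP medulla and 466 to 619 in PBS medulla, without overlap, and their part in the member values was not tested.

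Corpus callosum went the other way in the plasma experiment, and so did other regions. All 8 members were also higher in pons and posterior hippocampus (medians 0.11 and 0.15). In cerebellum and thalamus 7 were higher (0.35 and 0.10), and in visual cortex 6 (0.08). All 8 were lower in entorhinal cortex, choroid plexus, motor cortex and SVZ, and 4 in olfactory bulb and 5 in hypothalamus. In corpus callosum, Mbp read 12426, 12685 and 11088 CPM in 3 PBS mice and 18812 and 16451 in 2 YMP mice, a difference of 0.55 (SE 0.17). Mal read 335, 417 and 378 in PBS mice and 561 and 546 in YMP mice, a difference of 0.55 (SE 0.14). All 8 members were higher without overlap, by 0.35 (Opalin) to 0.55 (Mal), where 11% of genes were higher without overlap. By edgeR, the adjusted p was 0.243 to 0.679. DESeq2 called 3 members higher, Mbp (adjusted p = 0.0168), Cnp (0.0177) and Mal (0.0269), beside 2.05% of genes.

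The same libraries differed in choroid plexus content. The 7 choroid plexus markers summed to 5239, 13563 and 19047 CPM in the PBS mice and to 9.10 and 20.9 CPM in the YMP mice, where Aqp1 was at 0. By edgeR, 5 of the 7 were called lower in YMP mice, with a median of -8.76 on the log2 scale, and 1 of 5 meningeal markers was called lower. Astrocyte markers summed to 2762 and 2927 CPM in YMP mice and 2531, 2653 and 2534 in PBS mice, without overlap. The part of these differences in the member values was not tested. Among the fixed lists, 19 of 20 sheath proteins and 10 of 10 transcription factors had higher values in YMP corpus callosum, with medians of 0.28 and 0.43, and none was called. The direction of the lipid enzymes in that region is not given here. In olfactory bulb Mal alone was higher without overlap, at 102, 101 and 101 CPM in YMP mice and 95.6, 73.2, 85.1 and 81.7 in PBS mice, where 2.67% of genes were so. The 102 CPM of YMP mouse 73 rested on 66 counts in the smallest library, of 0.606 M. The difference of Mal was 0.31 (SE 0.08) with an edgeR adjusted p of 0.414.

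**Figure D3:**
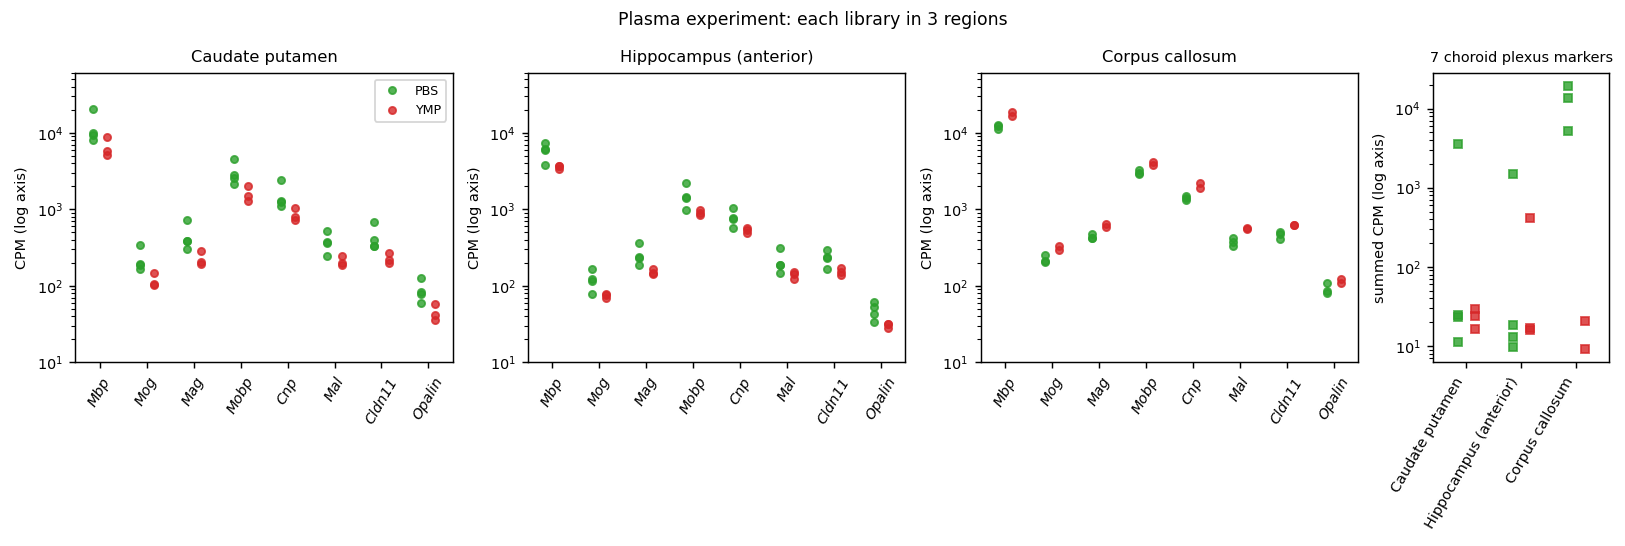
Levels of the 8 genes in each PBS and YMP library of caudate putamen, anterior hippocampus and corpus callosum, and the summed CPM of 7 choroid plexus markers in the same libraries, all on log axes. In corpus callosum both YMP mice lie above all 3 PBS mice for each gene, and in caudate putamen the PBS mouse 76 lies highest for each gene.

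Dietary restriction gave its largest set of small unadjusted p values in motor cortex. Mal read 128, 92.9, 77.4, 110.0 and 175 CPM in aDR mice and 75.5, 92.0, 68.8 and 73.9 in AL mice, a difference of 0.62 (SE 0.17) with an edgeR adjusted p of 0.163. Mbp read 2594, 1899, 1705, 2353 and 3058 in aDR mice and 1791, 2056, 1599 and 1484 in AL mice, a difference of 0.43 (SE 0.13). The groups overlapped for all 8 genes, and the aDR mouse 67 was highest for 7 of them. Mog, Mobp and Cldn11 differed by 0.42, 0.56 and 0.50, Cnp and Mag by 0.26 and 0.25, and Opalin by -0.01. Without the aDR mouse 64, the edgeR test called 5 members higher, Mal, Mog, Mbp, Cldn11 and Mobp, with Benjamini-Hochberg adjusted p of 0.0125 to 0.0436, where 0.98% of genes were called. Without the filter on low counts, Mal alone was called (adjusted p = 0.0429), beside 0.368% of genes.

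Other sheath proteins in aDR motor cortex were higher for 17 of 20, with a median of 0.17 and none called, Gjc3 being nearest at 0.54 (SE 0.12, edgeR adjusted p = 0.067). The direction of the lipid enzymes and transcription factors in motor cortex is not given here. Of 5 blood markers, 4 were tested and all 4 had higher values, with a median of 2.08 on the log2 scale and none called. The 5 markers summed to 8.13 to 113 CPM in aDR mice and 5.28 to 10.9 in AL mice. Their part in the member values was not tested. In cerebellum the sign was opposite. All 8 members were lower in aDR mice, between -0.31 (Cnp) and -0.66 (Opalin), with edgeR adjusted p of 0.216 to 0.495. Opalin read 13.5, 21.8, 10.9, 18.4 and 9.86 CPM in aDR mice and 27.8, 24.4, 23.6 and 17.9 in AL mice, which overlapped. There 19 of 20 sheath proteins and 11 of 12 lipid enzymes were lower, with medians of -0.50 and -0.43, and none was called. Ugt8a, which makes galactocerebroside, came nearest at -0.97 (SE 0.19, edgeR adjusted p = 0.0901). The direction of the transcription factors in cerebellum is not given here. Choroid plexus markers in that region reached 2101 CPM in 1 AL library and at most 20.7 in aDR libraries.

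In olfactory bulb Opalin stood apart from the other members. It read 8.86, 5.92, 5.7, 11.2 and 4.33 CPM in aDR mice and 11.7, 11.3, 10.3 and 10.5 in AL mice, a difference of -0.76 (SE 0.20) with an edgeR adjusted p of 0.179. The aDR mice 61, 62, 64 and 67 lay below all AL mice, and mouse 65 lay within them. The value of mouse 65 rested on 22 counts in a library of 1.83 M. The other 7 members differed there by -0.11 to 0.10. Within the 15 regions, the other sheath proteins gave 1 call by edgeR in 298 diet tests, lower in aDR mice, and 0 in 299 plasma tests. The lipid enzymes (180 tests in each experiment) and the transcription factors (147 tests for diet and 146 for plasma) gave 0 calls. At an unadjusted p under 0.05, diet gave 50 sheath protein, 21 lipid enzyme and 16 transcription factor tests, beside 6.24% of the tests of all genes. Plasma gave 58, 35 and 29, beside 6.11%. Tests of genes that share libraries are not independent.

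Entorhinal cortex had the largest differences between diets, and they rested on 2 libraries. Mbp read 3156, 7400.1, 217, 754 and 675 CPM in aDR mice and 586, 745 and 233 in AL mice. The aDR mice 61 and 62 stood above the rest for all members but Opalin, which read 4.96, 8.68, 1.62, 5.63 and 3.04 in aDR mice and 7.01, 6.82 and 1.3 in AL mice. The difference in Mbp was 2.21 with all mice and 0.05 without these 2, an alternative chosen after the data were seen. For the 8 members the values without them ran from -0.45 (Opalin) to 0.14 (Mog), and the edgeR adjusted p was 1 either way.

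Other transcripts also set these libraries apart, mouse 62 more than mouse 61, in genes chosen after their values were seen. Klk6, a protease of oligodendrocytes of spinal cord and brainstem, read 17.6 and 50.3 CPM, against at most 0.978 in the 13 other entorhinal libraries. The pituitary hormone gene Pomc read 50.0 and 478 CPM in mice 61 and 62, against at most 3.14. The pituitary genes Gh, Prl and Cga read 4504, 1926.7 and 835 CPM in mouse 62. In mouse 61 they read 15.2, 32.3 and 3.74, within the range of the 6 other diet libraries, which reached 47.3, 288 and 27.9 in mouse 67. In the plasma libraries Gh was at most 0.336 CPM and Prl and Cga were at 0. Gabra6, a marker of cerebellar granule cells, read 8.51 CPM in mouse 62 and 0.11 in mouse 61, against at most 0.338 in the others. The part of these transcripts in the member values was not tested. In the plasma experiment, the PBS mouse 72 read 2249.7 CPM for Mbp and 24.5 for Opalin in the same region, above the other PBS mice (511 to 647 and 4.27 to 6.96).

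**Figure D4:**
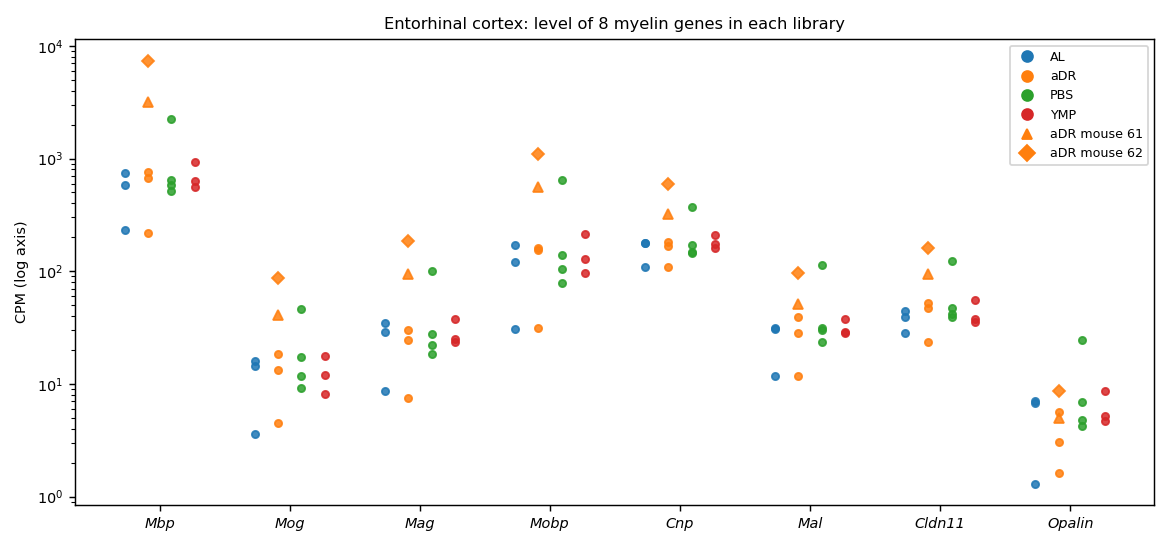
Levels of the members in each entorhinal cortex library of both experiments, with CPM on a log axis. The aDR mice 61 and 62 and the PBS mouse 72 lie above the others for Mbp, at 3156, 7400.1 and 2249.7 CPM, while Opalin in mice 61 and 62 is at 4.96 and 8.68 CPM, against 1.30 to 7.01 in the other diet mice.

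Across regions, log2 CPM was fitted on region and mouse for each gene, and the resulting 1 value for every mouse was compared with limma. No member was called for diet, where 0.922% of 15616 genes were, or for plasma, where 0% were. No member had an unadjusted p under 0.05 in either. Limma on voom weights with the mouse as a replicate block called 0 members too. For diet, Cldn11 was nearest, 0.16 higher (SE 0.07, limma adjusted p = 0.321), and higher in 13 of 15 regions. Opalin had the largest value, -0.29 (SE 0.18, limma adjusted p = 0.459), and was lower in 13 of 15 regions. The other 6 lay between -0.06 (Mag) and 0.13 (Mbp), and the signs of Mag and Mobp turned when single mice were left out. For plasma, all 8 values were negative, from -0.12 (Mal) to -0.28 (Opalin), although Mal turned to 0.05 without the PBS mouse 72, with limma adjusted p of 0.732 to 0.881 and groups that overlapped. The median over the members was 0.08 for diet and -0.15 for plasma, against -0.01 and -0.00 over all genes. Without the PBS mouse 72, the plasma value of Opalin was -0.12. Over the same plasma libraries, 7 of 7 choroid plexus markers and 5 of 5 meningeal markers had lower values in YMP mice, with medians of -1.28 and -0.42 and none called, and their part was not tested.

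A test of whether the treatment difference itself varied over the 15 regions called no member either. By the edgeR quasi-likelihood F test, the Benjamini-Hochberg adjusted p was 1 for all 8 genes in diet and 0.964 to 1 in plasma, with 0.0128% and 0.824% of genes called. None of the 16 member tests had an unadjusted p under 0.05, and 0 were called with the mouse as a block. Other myelin genes gave the same picture over regions. Of the 20 sheath proteins, 12 lipid enzymes and 10 transcription factors, limma called none in either experiment. At an unadjusted p under 0.05 there were 3, 1 and 2 of them for diet, beside 16.1% of all genes, and 2, 1 and 1 for plasma, beside 8.09%, so these counts lie near the background. Olig2, a transcription factor of the oligodendrocyte lineage, came nearest at -0.22 (SE 0.04, limma adjusted p = 0.0602) for diet.

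The diet difference of Opalin was -0.29 with all mice and -0.12 without the aDR mouse 67 (limma adjusted p = 0.418), a mouse singled out after its values were seen. Over regions, its Opalin value was 4.06 on the log2 scale, against 4.89, 4.96, 4.73 and 4.95 in the other aDR mice and 4.98, 5.17, 4.96 and 4.91 in AL mice. Mal was not low in this mouse, at 7.51 against 7.16 to 7.49 in the other aDR mice. Relative to the mean of the 8 members, Opalin in mouse 67 was lower than in the other diet mice by -0.70 on average and the lowest of all in 14 of 15 regions. Mal was higher by 0.42 and the highest in 15 of 15 regions. Mobp was higher by 0.32 and the highest in 14 of 15, and Cldn11 higher by 0.18 and the highest in 10. Mbp, Mog, Mag and Cnp differed by -0.11 to 0.01. These relative values balance each other, since the mean of the same 8 genes is subtracted.

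Single regions show the split. In medulla, mouse 67 read 42.1 CPM of Opalin against 55.3 to 80.3 in the other 8 diet mice, and 461 CPM of Mal against 279 to 386. In visual cortex it read 9.86 CPM of Opalin against 10.4 to 18.6, and 479 CPM of Mobp against 193 to 315. In pons, all 8 members were low in this mouse, with Mbp at 3611 CPM against 12504 to 21446, and Opalin at 9.74 against 43.4 to 66.9. Relative to the member mean, pons still had Opalin lowest and Mobp and Mal highest. Set against the member mean, as an alternative added after the data were seen, the diet difference of Opalin was -0.32 (SE 0.13, limma adjusted p = 0.838), with 0 of 8 members called beside 0.269% of genes. Without mouse 67 it was -0.20 (limma adjusted p = 0.944), with 0 of 8 beside 0.67%. In plasma it was -0.12, with 0 of 8 beside 0.146%. The SE was the same for every member in these last 2 tests, 0.134 and 0.212, drawn toward the spread of all genes. They therefore cannot decide on the members. Relative Opalin values were -3.42, -3.43, -3.32 and -3.23 in aDR mice other than mouse 67, and -3.08, -3.16, -3.23 and -3.11 in AL mice. At an unadjusted p under 0.05, Opalin was the only member, in diet with all mice, beside 3.98% of genes.

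**Figure D5:**
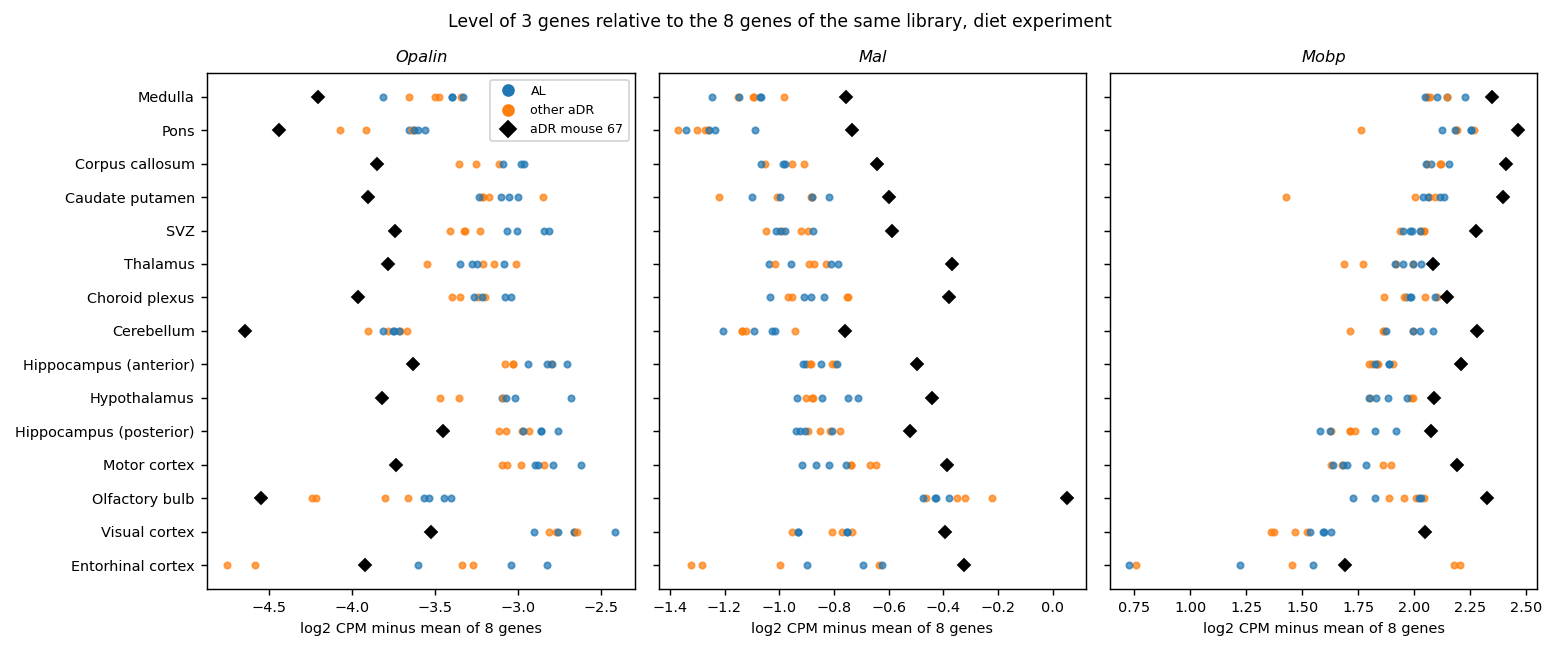
Levels of Opalin, Mal and Mobp minus the mean of the 8 members in each library of the diet experiment, on the log2 scale by region, with the aDR mouse 67 as black diamonds. Opalin of mouse 67 lies lowest in 14 of 15 regions, and Mal highest in 15 of 15.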

How the data were processed

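Unstranded mRNA libraries were made with Smart-Seq2 and Nextera XT from dissected brain regions and liver, per the labels' protocols. The authors deposited 1 table of whole-number counts per gene. Per the submitters' processing notes, Trim Galore 0.3.7, STAR 2.5.3a and DESeq2 were used with GRCm38; the counting program and annotation are not given in the sources used here. All count columns were matched to samples by name. Genes were kept with edgeR's filter (minimum count 10, minimum total 15). Treatment within a region and region differences were tested with edgeR 4.0.16 (quasi-likelihood, TMM), mouse values over regions with limma 3.58.1 on log2 CPM (prior count 2), in R 4.3.3, with Benjamini-Hochberg adjustment over all genes at 0.05. DESeq2 1.42.0, other filters, scalings and references, and leaving out each mouse were alternatives. Regions of the same mouse were paired by the animal named in the labels. The scripts were tested on simulated data. Named genes are the 8 members, the 8 genes nearest to their regional profile among genes of at least 10 CPM in AL mice, and the 3 genes of smallest p in each pathway list, of which some are printed. Members and lists were chosen with earlier results of these data known. Some genes of the lists and 1 alternative reference gene are not reported here.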

Additional observations from a re-analysis of the deposited data

Results flagged for a closer look

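Single mice stood apart from the rest of their group in 5 of 48 groups of mouse values over regions, and single libraries in 27 of 296 groups of CPM values. Chance alone picks about 1 in 20 groups, and the 8 genes of a library are not independent. Values are in log2 for mice and in CPM for libraries.

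The aDR mouse 67 had the lowest Opalin value over regions, 4.06, and relative to the mean of the 8 members its Opalin was -3.94 and its Mal -0.49, against -0.94 to -0.89 for Mal in the other aDR mice. Its libraries stood apart in pons for Mog (73.3), Mag (184), Cnp (426), Mal (129.8) and Cldn11 (149), in visual cortex for Mobp (479) and in medulla for Opalin (42.1).

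The PBS mouse 72 had the highest Cldn11 value over regions, 7.84 against 7.44 to 7.48. In entorhinal cortex it stood above the other PBS mice for Mbp (2249.7), Mag (100.2), Mobp (639), Cnp (369), Mal (113), Cldn11 (123) and Opalin (24.5). It was also high in thalamus for Mbp (7473), Mog (159) and Cnp (1094), and in medulla for Mal (436).

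The PBS mouse 76 was high in caudate putamen for Mbp (20499), Mog (339) and Cnp (2438), and low in olfactory bulb for Mbp (1285). Among AL mice, mouse 63 was low in medulla for Mbp (12975) and high in olfactory bulb for Cldn11 (113), mouse 69 was low in olfactory bulb for Mbp (1366), and mouse 68 was high in visual cortex for Mog (38.1) and over regions for Mog relative to the member mean (-1.60). The aDR mouse 64 was high in thalamus for Cldn11 (289).

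In the plasma experiment, every YMP mouse lay above every PBS mouse in corpus callosum and below every PBS mouse in another region for some members. The log2 difference in corpus callosum minus that in caudate putamen was 1.42 for Mog, 1.48 for Mag, 1.31 for Mobp, 1.39 for Cnp, 1.37 for Cldn11 and 1.33 for Opalin. Against anterior hippocampus it was 1.23 for Mbp, 1.24 for Mag, 1.10 for Cnp and 1.02 for Opalin. Against medulla it was 0.72 for Mag and 0.71 for Mobp. Members are listed only where the groups did not overlap in both regions. The 2 sides do not hold the same mice, since PBS mouse 72 and YMP mouse 73 had no corpus callosum library. In caudate putamen the PBS mouse 76 was highest for all 8 members. These differences between pairs of regions were not tested, and the edgeR test over all 15 regions called none of the 8 members.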

How the results depend on the processing

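In both experiments the counts of members called across regions and by the interaction (0), and in every test between regions (8), were the same under all alternatives run, including the replicate block (8 of 8 called in each region test, 0 in the interaction). Within regions, leaving out each mouse gave 0 to 5 members called for diet, with 5 without the aDR mouse 64, and 0 to 0 for plasma. The test without the low-count filter called 1 for diet, and DESeq2 called 7 for plasma. For the proportions of the members, Ermn as the reference called 4 in diet medulla and 1 in diet corpus callosum. Leaving out each mouse gave 6 to 8 and 1 to 3 there, the 1 without the aDR mouse 62 and the 3 without the AL mouse 63. With no replicate block, Cnp was called as well in diet medulla. In plasma medulla 7 were called with no replicate block, and 2 to 5 when each mouse was left out, with 2 without the YMP mouse 73 and 5 without the PBS mouse 72. For these alternatives of the proportions the share of all genes called is not given, so their counts lack a background. Of 980 alternatives of single member values, 914 kept direction and side of the threshold, 31 newly passed it, 20 no longer passed it and 15 turned direction. With Ermn as the reference, Mog turned to -0.050 in diet corpus callosum, -0.077 in plasma medulla and -0.0015 in plasma corpus callosum, and Mag to -0.077 in plasma medulla. With no replicate block, Mog in plasma corpus callosum was -0.0016. With each mouse left out, diet values across regions ran from -0.12 to 0.0093 for Mag and from -0.0026 to 0.16 for Mobp, and plasma values of Mal from -0.22 to 0.054. Opalin ran from -0.037 to 0.011 in the proportions of plasma corpus callosum and from -0.093 to 0.064 for diet in motor cortex. The cause was not tested for any of these. Alternatives with Ermn as the reference, relative to the member mean over regions, without the entorhinal libraries of mice 61 and 62, and without entorhinal cortex were chosen after the data were seen. Groups of 2 to 5 mice limit the precision of all treatment values, and the lowest count of a member in a brain library was 3, for Opalin.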
